A study of Mus musculus with 10 samples.

Results

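The genes described here are 38 that are known from breast cancer cells as classic targets switched on by estrogen. They were taken by name, but with earlier results of these data known. Their shares beside those of all genes are therefore description and not a test of the list. Each gene was read from 1 probe set, the one of greatest mean signal among those annotated with its symbol alone. Of the 38, 37 had such a probe set, and all 37 passed the filter on low values that left 17170 of 19556 genes for testing. The remaining gene, RBBP8, was not analysed here.

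In breast cancer, estrogen is known to act mainly through the estrogen receptor ERα, the product of ESR1, a transcription factor that binds its hormone and then recruits cofactors at enhancers and promoters. Its targets in breast cancer include receptor cofactors, growth factor receptors, secreted proteins, ion and lipid handling proteins and chaperones. Several of them, GREB1 and PDZK1 among them, are used as readouts of receptor activity because their transcripts fall when the hormone is withdrawn or the receptor is blocked.

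Female nu/nu mice, a strain without a thymus, aged 20 weeks, carried human breast cancer cells that are estrogen receptor positive. All animals received an estrogen pellet, which 1 set kept (E) and which was taken out for 1 week in the other (estrogen withdrawal, EWD). Axillary lymph node metastases came from mice 6, 11 and 14 with estrogen and from mice 9, 10 and 19 after its withdrawal, 3 arrays each. Primary mammary tumors came from mice 11 and 14 in the first state and mice 10 and 19 in the second, 2 arrays each. Cells were cut from frozen sections by laser capture, and their RNA was amplified by PCR. The values are log2 signals of human probe sets, so host RNA is read only by cross-hybridization, and the human cells are not named further in the labels. The series asks whether tumor cells in the lymph node have become insensitive to estrogen. Per-array values below are listed in the order of mice given here.

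The captured material carried luminal markers. The mean of 7 luminal genes was 8.15 and 8.37 in primary tumors with estrogen, 10.42 and 10.36 in those after withdrawal, and 9.21 to 10.59 in the nodes, whereas 10 measured leukocyte genes had means of 2.65 to 3.07, with 9 of the 10 below 4 in each group. KRT5, KRT14 and ACTA2, which mark basal or myoepithelial cells, had their highest mean in lymph nodes on the estrogen array of mouse 11, at 6.11, against 3.81 to 4.53 on the other 5 nodes. In a captured sample, fewer cells of a type and less RNA per cell cannot be told apart. The 2 arrays of primary tumors with estrogen had a narrower range than the other 8. Their 99th percentiles were 9.44 and 10.04, against 11.39 to 11.67 on the others. The main counts and medians are therefore also given after quantile normalization, which sets all arrays to 1 distribution. Differences of single genes are on deposited values unless the text says otherwise. The 18 hybridization controls were high (12.04 to 12.47) on the lymph node arrays of mouse 11 and mouse 19 and on both primary tumors after withdrawal, and low (9.47 to 10.59) on the other 6. Within primary tumors that split coincided with treatment, and the 2 cannot be told apart.

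Averaged over the 37 genes, the log2 signal in lymph nodes with estrogen was 7.24, 5.85 and 7.69, and after withdrawal it was 6.31, 6.24 and 5.72. Mice 6 and 14 thus stood above all withdrawn nodes, and mouse 11 stood among them. In primary tumors the mean was 6.20 and 6.28 with estrogen and 6.10 and 5.89 after withdrawal. After quantile normalization it was 6.90 and 6.89 with estrogen against 6.01 and 5.81, while the node arrays kept their order, with 7.03, 5.97 and 7.37 against 6.01, 6.01 and 5.71. The gap between treatments in primary tumors therefore depended on the scaling, and the low position of mouse 11 in the nodes did not.

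**Figure D1:**
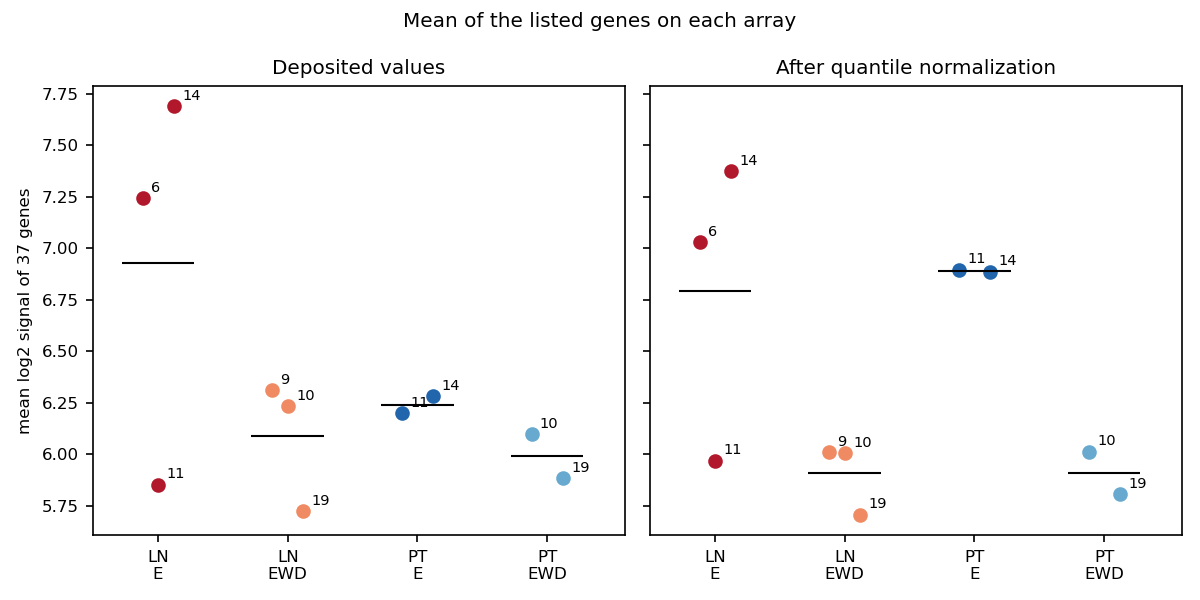
Mean log2 signal of the 37 genes on each array (vertical axis), by site (LN, lymph node; PT, primary tumor) and treatment, as deposited on the left and after quantile normalization on the right; points are arrays with the mouse number beside them and lines are group means. Mouse 11 lies at 5.85 in the lymph nodes with estrogen, below 2 of the 3 withdrawn nodes, and the estrogen-treated primary tumors move from 6.20 and 6.28 to 6.90 and 6.89 with the scaling.

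In lymph nodes most of the listed genes had higher mean signal with estrogen, but no single gene passed the test. The difference, estrogen minus withdrawal, was above 0 for 31 of 37 genes with a median of 0.91 on the log2 scale, where all 17170 genes had a median of −0.02 and 47.8% were above 0. HSPB8 (3.58 ± 0.80, SE), PRSS23 (3.39 ± 0.95) and GREB1 (2.86 ± 0.66) had the greatest positive differences, and the receptor tyrosine kinase gene RET had the most negative one (−2.59 ± 0.66). limma called 0 of the 37 at an adjusted p below 0.05, and called 0% of all genes in either direction. The smallest adjusted p of a listed gene was 0.235, for RAPGEFL1. At an unadjusted p below 0.05, 11 were higher and 1, RET, was lower, where the shares of all genes were 2.09% and 3.74%. Without the estrogen array of mouse 11 the difference was above 0 for 34 genes, and 2 were called where 0.0524% of all genes were, NPY1R (4.37 ± 0.33, adjusted p = 0.00503) and TSKU (2.92 ± 0.29, adjusted p = 0.0259).

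In primary tumors the genes divided. As deposited, 20 of 37 were above 0 with a median of 0.05, where all genes had a median of −0.10. The luminal markers did not all move alike on the same arrays. EPCAM (−3.53 ± 0.49, adjusted p = 0.0115) and CDH1 (−3.13 ± 0.34, adjusted p = 0.00603) were lower with estrogen. They had −1.87 (adjusted p = 0.0617) and −1.40 (adjusted p = 0.0511) after quantile normalization. The remaining luminal markers KRT8, KRT18, KRT19, ESR1 and GATA3 had −0.70, −1.46, 0.38, −3.83 and −2.70. After quantile normalization these were 0.01, 0.10, 0.52, −2.43 and −0.89. The 3′ minus 5′ difference of the GAPDH controls, a sign of RNA quality and amplification, was 3.15 and 3.73 with estrogen and 4.62 and 5.87 after withdrawal, and 3.84 to 4.39 in the nodes. The part of these values in the results for primary tumors was not tested. RAPGEFL1 and CCN5 rose, 2 of 37 where 0.879% of all genes were called higher, and SLC39A6 and CHPT1 fell, 2 of 37 where 6.94% were called lower. After quantile normalization 27 were above 0 with a median of 0.63, against 0.06 over all genes. On that scale GREB1, CCN5 and ASB13 rose, 3 of 37 where 0.757% of all genes were called higher, and 0 fell, where 0.582% were called lower. These calls rest on 2 arrays against 2. Leaving out 1 primary tumor array leaves 1 in its group, so only the median of the listed genes is given. As deposited it was −0.14 without mouse 11, 0.23 without mouse 14, 0.21 without mouse 10 and 0.12 without mouse 19. With all arrays 7.82% of all genes were called. Without the withdrawn node of mouse 10, 0 listed genes were called, where 3.03% of all genes were. There were 2 without the node of mouse 6 (4.14% of all genes) or 9 (5.62%). There were 5 without that of mouse 14 (11.3%) and 4 without that of mouse 19 (8.85%). Without the node of mouse 11 there were 12, 6 higher and 6 lower, in a fit that called 20.8% of all genes.

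**Figure D2:**
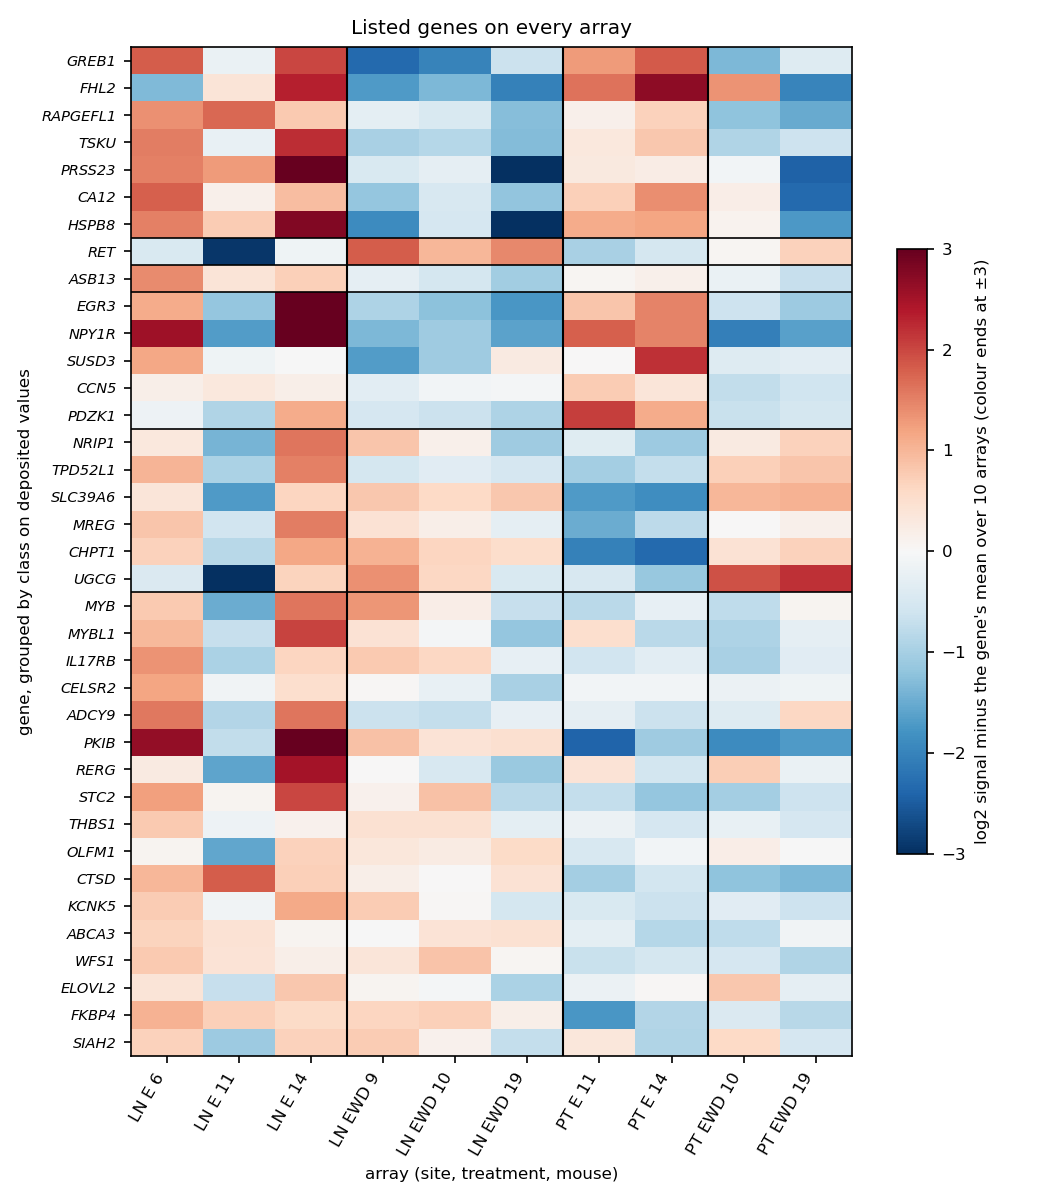
Log2 signal of each of the 37 genes minus its own mean over the 10 arrays (colour), with arrays in columns by site, treatment and mouse and genes in rows; black lines separate groups of arrays and the classes of genes described in the text, from the 7 higher at both sites at the top to the 17 past the rule at neither site. The column of lymph node mouse 11 is pale or blue for most genes that are red in mice 6 and 14.

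Genes were then sorted by a rule that uses no test. A gene was taken as responding at a site if the arrays with and without estrogen did not overlap and the group means differed by at least 1 on the log2 scale. On deposited values 7 of 37 genes (18.9%) were higher with estrogen at both sites, where 0.28% of all genes met the rule. They were GREB1, FHL2, RAPGEFL1, TSKU, PRSS23, CA12 and HSPB8, and all 7 also met it after quantile normalization, which added ASB13 (8 of 37, where 0.635% of all genes met the rule). RET was lower at both sites as deposited, as were 1.49% of all genes. On both scales at once, 7 of 37 were higher at both sites, against 0.268% of all genes, and 0 were lower, against 0.897%. As deposited, ASB13 was higher in lymph nodes alone, and EGR3, NPY1R, SUSD3, CCN5 and PDZK1 were higher in primary tumors alone. NRIP1, TPD52L1, SLC39A6, MREG, CHPT1 and UGCG were lower in primary tumors alone, and 17 genes met the rule at neither site. Shares of all genes were not taken for these classes, but those for each site follow below. After quantile normalization NRIP1, TPD52L1 and MREG met the rule at neither site, and RET was lower in nodes alone. CELSR2 was then higher in nodes alone, and CTSD and FKBP4 were higher in primary tumors alone. As deposited, none of the listed genes met the rule in opposite directions at the 2 sites, as 0.0175% of all genes did.

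The 2 sites differed in how many genes met the rule. In lymph nodes 8 listed genes were higher and 1 lower, against 0.676% and 1.93% of all genes. In primary tumors 12 were higher and 7 lower, against 3.28% and 25% of all genes, so the share of listed genes that were lower there (18.9%) did not exceed the background. After quantile normalization the counts in primary tumors were 15 higher and 3 lower, against 9.4% and 12.5% of all genes. In lymph nodes they were then 9 higher and 1 lower, against 0.938% and 1.75%. A group of 2 arrays separates from another of 2 more easily than 3 from 3, so the counts of the 2 sites are not directly comparable.

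**Figure D3:**
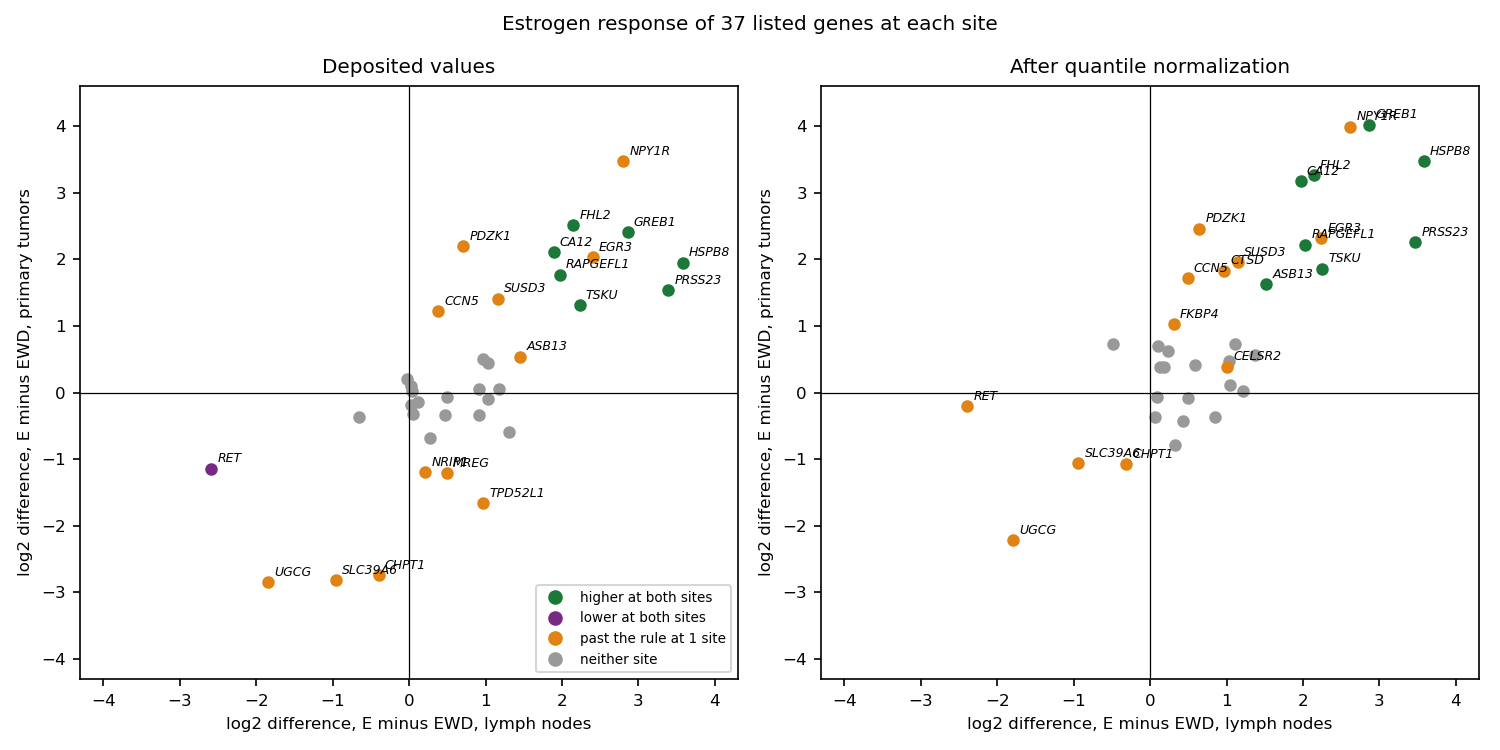
Log2 difference, estrogen minus withdrawal, in lymph nodes (horizontal axis) and primary tumors (vertical axis) for the 37 genes, as deposited on the left and after quantile normalization on the right; colours give the class by the response rule, and genes past the rule at a site are named. GREB1, FHL2, RAPGEFL1, TSKU, PRSS23, CA12 and HSPB8 lie in the upper right on both panels, while TPD52L1 and MREG lie at −1.66 and −1.21 on the vertical axis as deposited and at 0.12 and 0.42 after quantile normalization.

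Among the receptor cofactors and transcription factors, GREB1 encodes a chromatin-bound partner of ERα. In lymph nodes GREB1 had 9.95, 7.92 and 10.12 with estrogen and 5.79, 6.13 and 7.48 after withdrawal. In primary tumors it had 9.40 and 9.97 with estrogen and 6.78 and 7.73 after withdrawal. All estrogen arrays thus stood above all withdrawn arrays of their site, with mouse 11 the lowest of the treated nodes. The difference was 2.86 ± 0.66 in nodes (adjusted p = 0.339) and 2.41 ± 0.81 in primary tumors (adjusted p = 0.101), and 4.02 ± 0.74 in primary tumors after quantile normalization (adjusted p = 0.0428). These values come from 1 of 3 GREB1 probe sets past the filter, and the other 2 had differences of −0.20 and −0.01 in nodes.

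FHL2 encodes a LIM-domain cofactor of nuclear receptors. Its signal in lymph nodes was 3.29, 4.99 and 6.94 with estrogen and 2.91, 3.27 and 2.59 after withdrawal. In primary tumors FHL2 had 6.23 and 7.30 with estrogen and 5.96 and 2.62 after withdrawal. The node groups were barely separated, with the treated mouse 6 just above the withdrawn mouse 10, and the treated nodes spread widely. Neither difference passed the test (2.15 ± 1.02, adjusted p = 0.89, and 2.51 ± 1.25, adjusted p = 0.246).

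EGR3, a zinc finger transcription factor of the early hormone response, was high on the treated nodes of mice 6 and 14 (4.82 and 7.04) and not on that of mouse 11 (2.56), against 2.79, 2.47 and 1.97 after withdrawal. In primary tumors EGR3 had 4.54 and 5.21 with estrogen and 3.09 and 2.62 without, and those groups did not overlap. NRIP1, a ligand-dependent corepressor of ERα, and the related MYB and MYBL1 transcription factor genes had lymph node differences of 0.21 ± 0.73, 0.02 ± 0.79 and 1.03 ± 0.70. In nodes all 6 measured genes of this role had a positive difference, in primary tumors 4 did, and 0 of the 6 passed the test at either site on deposited values.

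Among receptors and signalling proteins, RAPGEFL1, which resembles guanine nucleotide exchange factors of small GTPases, had an even response over the arrays. In lymph nodes RAPGEFL1 had 6.71, 7.05 and 6.12 with estrogen and 5.04, 4.88 and 4.05 after withdrawal. In primary tumors it had 5.47 and 6.01 with estrogen and 4.13 and 3.82 after withdrawal. The groups were separate at both sites, and here mouse 11 was the highest of the treated nodes. The difference was 1.97 ± 0.34 in nodes (adjusted p = 0.235) and 1.77 ± 0.42 in primary tumors (adjusted p = 0.0386, and 2.22 with adjusted p = 0.0556 after quantile normalization).

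RET encodes the receptor tyrosine kinase for ligands of the GDNF family, and it went against the name of the list. In lymph nodes RET had 7.18, 4.71 and 7.49 with estrogen and 9.45, 8.62 and 9.07 after withdrawal. Primary tumors had 6.65 and 7.09 with estrogen and 7.69 and 8.32 after withdrawal. Every estrogen array lay below every withdrawn array of its site, and all 3 probe sets past the filter had negative differences at both sites. The difference in nodes was −2.59 ± 0.66 (adjusted p = 0.467). In primary tumors it was −1.14 ± 0.81 (adjusted p = 0.419) as deposited and −0.20 after quantile normalization.

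NPY1R, a G protein-coupled receptor for neuropeptide Y, is given array by array because its call turned on 1 array, a choice made after its values were seen. In lymph nodes NPY1R had 6.64, 2.41 and 7.59 with estrogen and 2.75, 3.02 and 2.49 after withdrawal. In primary tumors it had 5.89 and 5.58 with estrogen and 2.04 and 2.45 after withdrawal. The treated nodes of mice 6 and 14 and both treated primary tumors, 1 of them from mouse 11, were high, and the node of mouse 11 was below every withdrawn node. The difference was 2.80 ± 1.10 in nodes (adjusted p = 0.791, and 0.00503 without mouse 11) and 3.47 ± 1.35 in primary tumors (adjusted p = 0.147).

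ADCY9, an adenylyl cyclase, TPD52L1, a coiled-coil protein of the TPD52 family, PKIB, an inhibitor of protein kinase A, and RERG, a RAS-related GTPase, had positive differences in nodes (1.31, 0.97, 1.18 and 0.91). In primary tumors the same genes had −0.59, −1.66, 0.05 and −0.33. The adhesion receptor gene CELSR2 had 0.92 in nodes and 0.06 in primary tumors, SUSD3, a sushi-domain membrane protein, 1.16 and 1.41, and the interleukin-25 receptor gene IL17RB −0.03 and 0.20. None of these 7 passed the test at either site on deposited values.

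Of the secreted and lysosomal proteins, TSKU encodes a small leucine-rich extracellular protein. In lymph nodes TSKU had 7.07, 5.32 and 7.75 with estrogen and 4.56, 4.67 and 4.23 after withdrawal. Primary tumors had 5.85 and 6.34 with estrogen and 4.64 and 4.92 after withdrawal. All treated arrays were above the withdrawn ones, with the node of mouse 11 closest to them. The difference was 2.23 ± 0.54 in nodes (adjusted p = 0.42) and 1.31 ± 0.66 in primary tumors (adjusted p = 0.25).

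PRSS23 encodes a secreted serine protease. In lymph nodes PRSS23 had 7.88, 7.65 and 9.68 with estrogen and 5.91, 6.10 and 3.03 after withdrawal, and in primary tumors 6.67 and 6.60 with estrogen and 6.30 and 3.96 after withdrawal. Both sites separated by treatment on this probe set, but in primary tumors mouse 10 after withdrawal lay close to the treated arrays. Of its 3 probe sets past the filter, another had 1.43 in nodes and −0.19 in primary tumors, with overlap at both sites. The remaining one had 0.93 and 1.36, without overlap. On the probe set used the difference was 3.39 ± 0.95 in nodes (adjusted p = 0.54) and 1.54 ± 1.16 in primary tumors (adjusted p = 0.454).

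CCN5, a matricellular protein of the CCN family, had a small but even difference. In primary tumors CCN5 had 6.04 and 5.65 with estrogen and 4.54 and 4.70 after withdrawal, and it rose by 1.22 ± 0.23 (adjusted p = 0.0216, and 1.72 with adjusted p = 0.0428 after quantile normalization). In lymph nodes it had 5.47, 5.61 and 5.47 with estrogen and 4.97, 5.20 and 5.22 after withdrawal, a difference of 0.38 ± 0.19 (adjusted p = 0.901). The groups did not overlap at either site, and the difference in nodes was under the limit of 1 that the response rule sets.

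CTSD encodes cathepsin D, a lysosomal aspartic protease. In lymph nodes CTSD had 10.19, 11.00 and 9.90 with estrogen and 9.36, 9.20 and 9.62 after withdrawal. In primary tumors it had 8.17 and 8.64 with estrogen and 7.98 and 7.83 after withdrawal. The treated arrays were above the withdrawn ones at both sites. The difference of 0.97 ± 0.30 in nodes (adjusted p = 0.594) had the same sign on all 7 probe sets, and that of 0.50 ± 0.37 in primary tumors was 1.83 ± 0.44 (adjusted p = 0.0759) after quantile normalization. STC2, a secreted stanniocalcin, had 1.03 ± 0.53 in nodes and −0.10 ± 0.65 in primary tumors. The matrix glycoprotein genes THBS1 (0.04 and 0.02) and OLFM1 (−0.65 and −0.37) had differences close to or below 0 at both sites.

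Among transport and membrane proteins, CA12 encodes a membrane carbonic anhydrase. In lymph nodes CA12 had 8.74, 7.10 and 7.88 with estrogen and 5.79, 6.48 and 5.76 after withdrawal. In primary tumors CA12 had 7.67 and 8.34 with estrogen and 7.14 and 4.61 after withdrawal. The groups were separate at both sites, by a wide margin in primary tumors only for mouse 19. The difference was 1.89 ± 0.65 in nodes (adjusted p = 0.718) and 2.11 ± 0.80 in primary tumors (adjusted p = 0.138). On none of its 7 probe sets was the difference below 0. The treated arrays were above all withdrawn ones on 1 of the 7 in nodes and on 4 in primary tumors.

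PDZK1, a scaffold of membrane transporters, was seen with estrogen mainly in primary tumors, where it had 5.12 and 4.16 with estrogen and 2.37 and 2.52 after withdrawal. In lymph nodes PDZK1 had 2.89, 2.15 and 4.16 with estrogen and 2.55, 2.39 and 2.12 after withdrawal. Only mouse 14 among the nodes reached the levels of the treated primary tumors, and the node groups overlapped. The difference was 2.20 ± 0.58 in primary tumors (adjusted p = 0.0533) and 0.71 ± 0.47 in nodes (adjusted p = 0.927).

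SLC39A6, the zinc importer LIV-1, also went against the name of the list. In primary tumors SLC39A6 had 10.37 and 10.19 with estrogen and 13.07 and 13.10 after withdrawal, and in lymph nodes it had 12.43, 10.37 and 12.71 with estrogen and 12.86, 12.65 and 12.88 after withdrawal. The treated primary tumors and the node of mouse 11 were low, and the other 7 arrays were close together. It fell in primary tumors by 2.82 ± 0.65 on the log2 scale (adjusted p = 0.0358), but the difference was −1.06 (adjusted p = 0.321) after quantile normalization. In nodes it was −0.96 ± 0.53 (adjusted p = 0.914). MREG, which takes part in organelle transport, had 0.49 in nodes and −1.21 in primary tumors. The potassium channel gene KCNK5, the lipid transporter gene ABCA3 and WFS1, a membrane protein of the endoplasmic reticulum, had differences between −0.14 and 0.50 at the 2 sites.

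Of the 3 lipid synthesis genes, 1 had a positive difference in nodes and 0 in primary tumors. CHPT1, which makes phosphatidylcholine, had 8.69 and 8.40 with estrogen and 11.16 and 11.42 after withdrawal in primary tumors. In lymph nodes CHPT1 had 11.42, 9.89 and 11.89 with estrogen and 11.77, 11.38 and 11.25 after withdrawal. The groups were far apart in primary tumors and overlapped in nodes. It fell in primary tumors by 2.74 ± 0.56 (adjusted p = 0.0259), and after quantile normalization the difference was −1.07 (adjusted p = 0.236). UGCG, which makes glucosylceramide, had −1.85 ± 1.09 in nodes and −2.85 ± 1.34 in primary tumors, and the fatty acid elongase gene ELOVL2 had 0.47 ± 0.46 and −0.33 ± 0.57, all 4 short of the threshold.

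Of the chaperones and ubiquitin ligases, HSPB8 encodes a small heat shock protein that works with BAG3 in the removal of misfolded proteins. In lymph nodes HSPB8 had 9.29, 8.54 and 10.55 with estrogen and 5.90, 7.29 and 4.46 after withdrawal, and in primary tumors 8.89 and 8.96 with estrogen and 7.90 and 6.05 after withdrawal. The treated arrays of both sites were above every withdrawn one. The difference was 3.58 ± 0.80 in nodes (adjusted p = 0.314) and 1.95 ± 0.98 in primary tumors (adjusted p = 0.25). Its other probe set had 0.49 in nodes, where the groups overlapped, and 2.03 in primary tumors.

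ASB13, a SOCS-box protein of ubiquitin ligase complexes, had 8.96, 7.93 and 8.25 with estrogen and 7.28, 7.01 and 6.49 after withdrawal in lymph nodes. In primary tumors ASB13 had 7.60 and 7.70 with estrogen and 7.34 and 6.86 after withdrawal. The groups were separate at both sites, but in primary tumors the difference of 0.54 ± 0.39 (adjusted p = 0.426) was below the limit of the response rule. After quantile normalization it was 1.63 ± 0.30 (adjusted p = 0.0428). FKBP4, a co-chaperone of steroid receptors, had 0.27 ± 0.29 in nodes and −0.68 ± 0.35 in primary tumors, the latter being 1.03 ± 0.27 after quantile normalization. The ubiquitin ligase gene SIAH2 had 0.05 ± 0.61 and −0.32 ± 0.75.

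**Figure D4:**
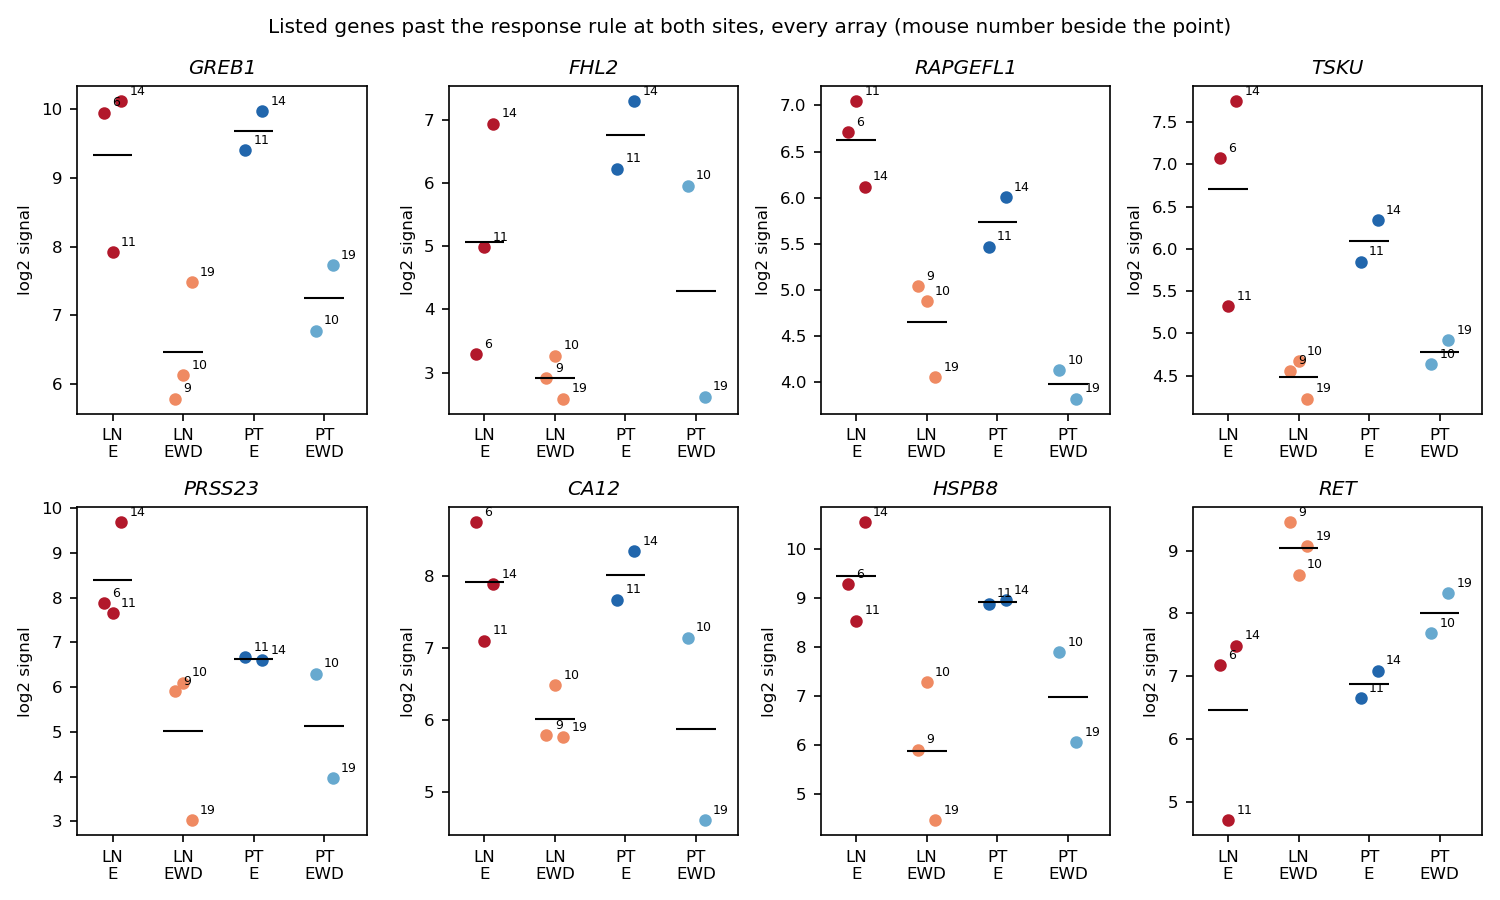
Log2 signal on every array for the 7 genes higher with estrogen at both sites and for RET, lower at both; each panel has its own vertical scale, which does not start at 0, points are arrays with the mouse number beside them, and lines are group means. For GREB1 the treated nodes lie at 7.92 to 10.12 and the withdrawn nodes at 5.79 to 7.48, and for RET the order is turned.

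Over all genes, the difference in primary tumors as deposited was more negative at higher mean signal. Among the listed genes TPD52L1, SLC39A6, MREG, CHPT1 and FKBP4 had means above 10 over all arrays, and their primary tumor differences were −1.66, −2.82, −1.21, −2.74 and −0.68. The 847 genes with such means had a median difference of −1.90 there, and of −0.19 after quantile normalization, which gave 0.12, −1.06, 0.42, −1.07 and 1.03 for the 5. The 7624 genes with means below 4 had a median of 0.11. The medians between were −0.12 at means of 4 to 6, −0.77 at 6 to 8 and −1.31 at 8 to 10. The listed genes did not follow this order throughout. NRIP1 (−1.19), with a mean between 4 and 6, lay below the median of its level. So did UGCG (−2.85, and −2.22 after quantile normalization), with a mean between 6 and 8. RET (−1.14), also between 6 and 8, lay nearer to it. GREB1 (2.41) and CTSD (0.50), with means between 8 and 10, had positive differences. Of the 37 genes, 9 changed the sign of their primary tumor difference with the scaling. They were MYB, ADCY9, TPD52L1, STC2, THBS1, OLFM1, ABCA3, MREG and FKBP4. In lymph nodes 1 gene, IL17RB, changed the sign of its difference. Which scale is nearer to the RNA content of the cells was not tested.

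Whether the response to estrogen differed between the sites was tested directly, as the lymph node difference minus the primary tumor difference. None of the 37 genes passed, with a smallest adjusted p of 0.267, and limma called 0% of all genes as higher in nodes and 0.0116% as lower. At an unadjusted p below 0.05, 2 listed genes were higher and 1 lower, where the shares of all genes were 8.67% and 2.18%. The greatest differences relative to their error were those of CHPT1 (2.34 ± 0.73), TPD52L1 (2.63 ± 0.87) and CCN5 (−0.84 ± 0.30). The median over the 37 was 0.56 as deposited, against 0.15 over all genes, and 0.11 after quantile normalization, against −0.02.

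For the genes higher at both sites the difference between responses was 0.46 ± 1.06 in GREB1, −0.37 ± 1.64 in FHL2 and 0.20 ± 0.55 in RAPGEFL1. It was 0.91 ± 0.86 in TSKU, 1.85 ± 1.53 in PRSS23, −0.22 ± 1.05 in CA12 and 1.62 ± 1.29 in HSPB8. These errors leave room for a response in nodes well above or below that in primary tumors, and they do not show that the sites respond alike. Without the lymph node array of mouse 11, 6 of the 37 genes (16.2%) were called, where that fit called 8.99% of all genes, and all 6 had a more positive difference in nodes. They were ADCY9 (2.70 ± 0.47), PKIB (2.37 ± 0.60), TPD52L1 (3.36 ± 0.34), SLC39A6 (2.59 ± 0.30), MREG (2.29 ± 0.48) and CHPT1 (2.94 ± 0.38). With quantile normalization 0 listed genes were called, with or without that array, where 0% of all genes were called higher and 0.00582% lower with all arrays.

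Averaged over the sites, which uses the same arrays again, 8 of the 37 genes rose, where 0.978% of all genes were called higher. They were RAPGEFL1 (1.87 ± 0.27, adjusted p = 0.0118), CCN5 (0.80 ± 0.15, adjusted p = 0.0218), GREB1 (2.63 ± 0.51, adjusted p = 0.0247), HSPB8 (2.77 ± 0.62, adjusted p = 0.0368), TSKU, ASB13, PDZK1 and CA12, the last 4 with adjusted p between 0.0413 and 0.0478. Without mouse as a block PDZK1 and CA12 were no longer called (adjusted p = 0.0535 and 0.0509). SLC39A6 (−1.89 ± 0.41) and CHPT1 (−1.57 ± 0.35) fell, 2 of 37 where 7.04% of all genes were called lower. After quantile normalization 9 rose, against 1.62% of all genes, and 0 fell, against 2.1%. PRSS23 and CTSD then joined the genes that rose, and PDZK1 was no longer among them. The 10 calls on deposited values came from a fit that called 8.01% of all genes, and they changed when single nodes were left out. There was 1 without the withdrawn node of mouse 9 (1.26% of all genes). There were 2 without the node of mouse 10 (1.83%) or 6 (3.16%). Without the node of mouse 19 there were 6 (10.8%). Without the treated node of mouse 11 or 14 there were 15, where 10.9% and 15.8% of all genes were called. Leaving out 1 primary tumor array leaves 1 in its group, and the median of the listed genes was then 0.22 to 0.53, against 0.36.

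With estrogen present, CTSD (1.95 ± 0.34, adjusted p = 0.0125), CHPT1 (2.53 ± 0.52, adjusted p = 0.021) and FKBP4 (2.09 ± 0.32, adjusted p = 0.00914) were higher in lymph nodes than in primary tumors, 3 of 37 where 7.81% of all genes were called higher. None was lower, where 0.949% of all genes were. The order of the sites was not the same on all CTSD probe sets. Another one had 6.11, 6.42 and 6.05 in treated nodes and 7.03 and 6.91 in treated primary tumors. A further one had 5.96, 5.82 and 4.86 against 4.14 and 3.91. With the mean of all probe sets only WFS1 was called, where 4.86% of all genes were. FKBP4 had 11.70, 11.36 and 11.22 in the treated nodes and 8.91 and 9.77 in the treated primary tumors, against 11.28, 11.36 and 10.82, and 10.22 and 9.82, after withdrawal. The nodes were above the primary tumors in both states. After quantile normalization 0 listed genes were called in this comparison, where 0.0757% of all genes were called higher and 0.384% lower, and the 3 differences were 0.50, 0.96 and 0.35. Without the primary tumor array of mouse 11, which leaves 1 in its group, the median of the listed genes was 0.73, against 0.74. Without the lymph node array of mouse 11, 14 of 37 (37.8%) were called, in a fit that called 22.4% of all genes.

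After withdrawal 0 of the 37 differed between the sites, and limma called 0% of all genes. At an unadjusted p below 0.05, 4 were higher in nodes and 0 lower, where the shares of all genes were 8.03% and 2%. The kinase inhibitor gene PKIB had 7.54, 4.16 and 8.31 in treated nodes and 5.79, 5.31 and 5.38 in withdrawn ones, and 2.50 and 3.85 with and 3.02 and 3.20 without estrogen in primary tumors. Every node array of PKIB was above every primary tumor array, with differences of 3.51 ± 1.06 with estrogen (adjusted p = 0.0828) and 2.39 ± 1.06 after withdrawal (adjusted p = 0.506). PKIB was singled out after its values were seen.

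The lymph node array of mouse 11 stood apart from the other 2 treated nodes in this set. It was the lowest of the 3 for 30 of the 37 genes (81.1%), where it was the lowest for 48.7% of all genes. After quantile normalization it was the lowest for 27, against 43.4% of all genes. It was the highest for RAPGEFL1, CCN5 and CTSD on both scales, and after quantile normalization for ABCA3 and WFS1 as well. On the same array ESR1 stood at 5.44, against 9.22 and 10.24 in the other treated nodes, and KRT5 and ACTA2 stood at 6.22 and 8.92, against 3.18 and 3.44, and 6.83 and 7.32. The mean of the luminal markers was 9.21 there and 10.27 and 9.91 in the other 2, and the part of these values in the result was not tested. The primary tumor of the same mouse had 5.89 for NPY1R, 4.54 for EGR3 and 9.40 for GREB1, where its node had 2.41, 2.56 and 7.92.

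Different probe sets of a gene did not all respond alike. The 37 genes had 94 probe sets, of which 88 passed the filter, and 12 genes had only 1. For CTSD the treated nodes were above all withdrawn nodes on 5 of 7 probe sets. Another one had 6.11, 6.42 and 6.05 with estrogen and 4.20, 4.42 and 4.73 after withdrawal in nodes, and 7.03 and 6.91 against 4.72 and 4.01 in primary tumors, a wider gap than on the probe set used. For SLC39A6 all 5 probe sets past the filter had the treated primary tumors below the withdrawn ones. Treated primary tumors were above the withdrawn ones on all 4 probe sets of SUSD3 and on both of HSPB8. In nodes the treated arrays were above the withdrawn ones on only 1 probe set of each of these genes. With the mean of all probe sets in place of the highest, 5 genes met the response rule at both sites, FHL2, RAPGEFL1, TSKU and HSPB8 as higher and RET as lower.

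**Figure D5:**
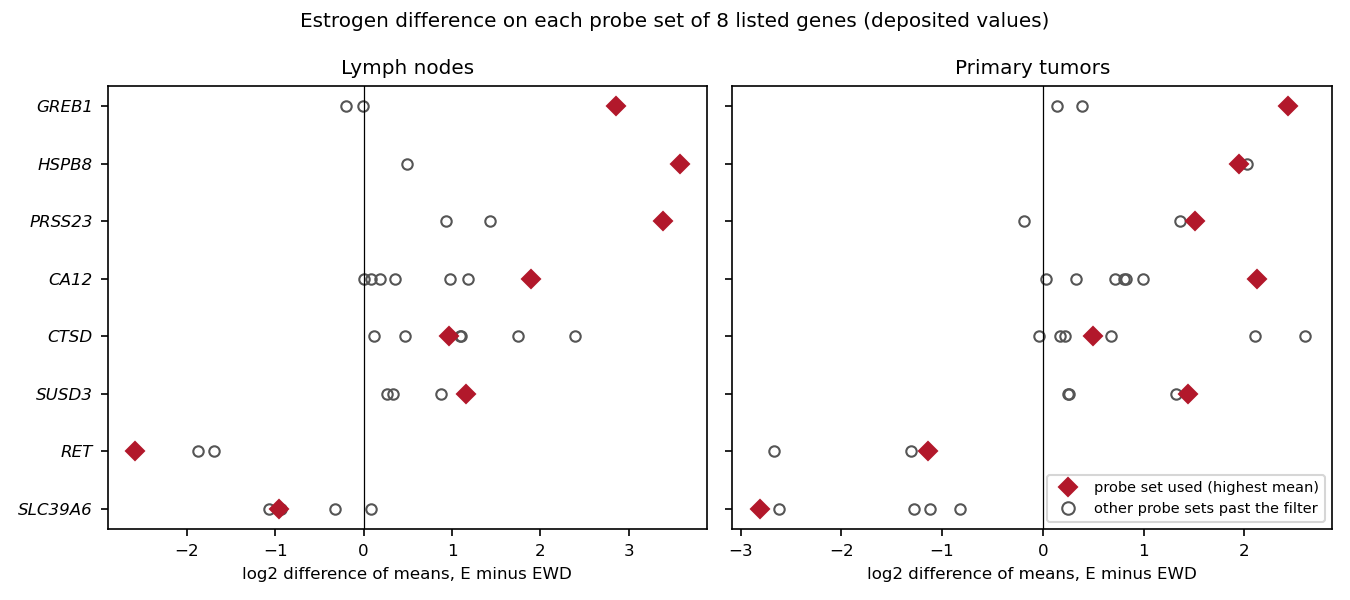
Log2 difference of group means, estrogen minus withdrawal (horizontal axis), for every probe set past the filter of 8 listed genes, with lymph nodes on the left and primary tumors on the right; red diamonds are the probe sets used for the gene and open circles the others. GREB1 has 1 probe set at 2.86 in nodes and 2 near 0, whereas the 7 of CTSD and the 3 of RET each lie on 1 side of 0 in nodes.

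The genes of the receptor and its cofactors mostly had lower signal with estrogen. Of 13 tested genes for estrogen receptors and cofactors, 2 had a positive difference in nodes and 2 in primary tumors. Of all genes 47.8% and 44.1% did. ESR1 had 9.22, 5.44 and 10.24 with estrogen and 11.87, 11.02 and 11.52 after withdrawal in nodes, and 8.04 and 8.25 against 11.28 and 12.65 in primary tumors. All treated arrays of ESR1 were below all withdrawn ones of their site (−3.17 ± 1.06, adjusted p = 0.675, and −3.83 ± 1.29, adjusted p = 0.104). The pioneer factor gene FOXA1 had −1.45 ± 0.63 and −2.65 ± 0.78. In primary tumors GATA3, a luminal transcription factor (−2.70 ± 0.35, adjusted p = 0.0105), and the coactivator gene NCOA1 (−2.00 ± 0.49, adjusted p = 0.0425) fell. These were 2 of 13 where 6.94% of all genes were called lower. After quantile normalization 0 of the 13 were called there, where 0.757% of all genes were called higher and 0.582% lower.

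Of 15 other tested genes known to be induced by estrogen, 10 had a positive difference in nodes and 9 in primary tumors. Of all genes 47.8% and 44.1% did. In nodes 0 of the 15 passed the test. In primary tumors IGF1R, the receptor for insulin-like growth factor, rose by 1.51 ± 0.30 (adjusted p = 0.0246, and 0.038 after quantile normalization). XBP1, a transcription factor of the secretory pathway, fell there by 2.21 ± 0.31 (adjusted p = 0.0116), with −0.69 after quantile normalization. As deposited these were 1 of 15 called higher and 1 lower, where 0.879% and 6.94% of all genes were. MYC had differences of 1.95 ± 0.57 and 1.03 ± 0.69, and the cyclin gene CCND1 had 0.04 ± 0.45 and −0.54 ± 0.55. TFF1, a secreted trefoil peptide, lay between 13.91 and 14.14 in all nodes. In primary tumors TFF1 had 11.86 and 12.85 with estrogen and 13.41 and 13.34 after withdrawal. Its difference there was −1.02 as deposited and 0.31 after quantile normalization. The trefoil factor gene TFF3 (−3.38 ± 0.66 in nodes and −2.23 ± 0.80 in primary tumors) and AGR2 (−1.81 ± 0.68 and −2.34 ± 0.83), singled out after their values were seen, had negative differences short of the threshold at both sites. PGR, the progesterone receptor gene, lay between 2.06 and 2.47 on all arrays and did not pass the filter.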

How the data were processed

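The authors' deposited values are log2 signals, 1 per probe set and array, for 61359 human probe sets. Partek and RMA are named, without versions or roles, in the submitters' processing notes. RMA corrects background, normalizes arrays and summarizes probes, yet the arrays did not share 1 distribution. Amplifying small captured samples by PCR adds noise, and 2 or 3 arrays per group limit the precision. Genes were named from the platform annotation table (44532 probe sets with 1 symbol, 1492 with several, 15273 unnamed, 62 controls). Genes with a mean below 2.31, the 25th percentile of probe set means, were left out (2386 genes).

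limma 3.58.1 in R 4.3.3 was fitted to all 10 arrays with 1 mean per group and mouse as a random block (consensus correlation −0.0415), for 6 comparisons. Adjusted p-values are by the Benjamini-Hochberg method over 17170 genes, with calls below 0.05. Fitted differences can depart slightly from differences of group means because of the block. Arrays of the 2 sites were paired by animal, and the correlations of their deviations were −0.208, −0.21, 0.176 and 0.0831 in mice 11, 14, 10 and 19. The fit was also run on simulated data with independent noise, to check that planted differences were estimated close to their size. That run does not measure the error rate in these data. All genes on the list are named, with values on every array for those called, responding at both sites or singled out. The members, their roles and the lists of other genes were chosen with earlier results of these data known. Alternatives covered the normalization, filter, probe sets, block, variance model, hybridization controls, samples in the fit and single arrays left out.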

Additional observations from a re-analysis of the deposited data

How the results depend on the processing

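The number of listed genes called, with the main value first, was 0 in lymph nodes, 4 in primary tumors, 0 for the difference of responses, 10 for the average, 3 for nodes against primary tumors with estrogen and 0 after withdrawal, and 8 genes met the response rule at both sites. Leaving out 1 node array at a time gave 0 to 2, 0 to 12, 0 to 6, 1 to 15, 2 to 14 and 0 to 0 calls in the same order. No calls are given without a primary tumor array, which leaves 1 in its group. By the response rule 4 to 11 genes remained when any 1 array was left out. The 4 genes left without the withdrawn primary tumor of mouse 19 were GREB1, RAPGEFL1, TSKU and HSPB8. With estrogen, nodes against primary tumors gave 0 calls with quantile normalization, with or without the block, with cyclic loess, and with its own groups alone in the fit. In that order 0.46%, 0.635% and 0.215% of all genes were called, and 0 genes with its own groups. Cyclic loess gave 0 calls in primary tumors, where 0.315% of all genes were called. Own groups alone gave 11 there, where 3685 of 17170 genes were called. The mean of all probe sets gave 2 calls in primary tumors, 6 for the average and 1 with estrogen between sites. The shares of all genes were 3.97%, 4.52% and 4.86%. With that mean 5 genes met the rule at both sites. With a covariate for the hybridization controls there were 11 calls in primary tumors (2 higher and 9 lower, median −0.96), where 32.8% of all genes were called. There were 11 for the difference of responses (all genes 19.7%) and 12 for the average (6 higher and 6 lower, all genes 32.1%). Between sites there were 15 with estrogen (all genes 26.2%) and 2 after withdrawal (all genes 6.28%). In primary tumors the controls split exactly as treatment did, so the covariate was in effect estimated from the nodes. There the high arrays were those of mice 11 and 19, and their deviations were carried over to the primary tumors. These counts therefore cannot separate the controls from treatment. Nodes with low controls alone gave 3 calls (GREB1, NPY1R and TSKU), where 0.0408% of all genes were called. Quantile normalization without the node of mouse 11 was added after seeing the data, like that without the block. It gave 2 calls in nodes, 13 in primary tumors and 1 between sites with estrogen. The shares of all genes were 0.0408%, 11% and 2.67%. Without the replicate block the average had 8 calls (all genes 7.08%), losing PDZK1 and CA12, and the other 5 counts kept their values. The response rule was met at both sites under all 14 alternatives by RAPGEFL1, TSKU and HSPB8, under 13 by GREB1 and FHL2, under 12 by PRSS23 and CA12 and under 10 by RET. Signs turned past the threshold in NPY1R between sites with estrogen without the node of mouse 11 (1.40, where leaving out single arrays gave −1.22 to 1.40) and, with quantile normalization as well, in FKBP4 in primary tumors (1.03) and TPD52L1 in the average (0.88). The cause of these changes was not tested.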
